A study of Mus musculus with 12 samples.

Results

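The genes for the NF-kappaB subunits and for the inhibitors that hold NF-kappaB back were followed in sorted mouse intestinal stem cells (ISCs) after a short stress or a dose of corticosterone. They are 10 of the 47729 genes in the count table and were chosen by symbol, namely the subunit genes *Nfkb1*, *Nfkb2*, *Rela*, *Relb* and *Rel*, the inhibitor genes *Nfkbia*, *Nfkbib*, *Nfkbie* and *Nfkbiz*, and *Tnfaip3*. All 10 passed the filter on low counts in every comparison.

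RNA was sequenced from ISCs of the small intestine in 12 libraries, 3 in each of 4 groups. All mice were Lgr5-EGFP-IRES-CreERT2 mice, which make green fluorescent protein from the locus of the stem cell gene *Lgr5*, and the brightest epithelial cells were sorted after cells with blood, endothelial or CD24 surface markers had been gated out. CRS mice were restrained for 3 h on 1 day, and Ctrl mice went without food and water for the same time but were not restrained. CORT mice received corticosterone at 5 mg/kg by intraperitoneal injection, dissolved in a cyclodextrin solution that the Vehicle mice received alone. The label CRS stands for chronic restraint stress, but the exposure in this experiment lasted 1 day. The methods describe mice of 8 to 10 weeks and of both sexes, and the sex of each library was not used here. The names CRS 1+2 and CRS 4+5+6 read as pools of several mice. No label says how many mice stand behind a library, so p-values measure the spread between these libraries only.

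NF-kappaB is a family of dimeric transcription factors that wait in the cytoplasm, bound to inhibitor proteins of the IkappaB family. Signals from cytokine and microbial receptors activate the IkappaB kinase complex, the inhibitor is degraded and the dimer enters the nucleus, where it also switches on the genes of its own inhibitors. In the intestinal epithelium the pathway is known for its part in cell survival and in the response to microbes. Glucocorticoids are known to dampen it, and a rise of *Nfkbia* is among the effects described for them in other cells.

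The libraries held between 15934907 and 17135770 counts in Ctrl and CRS, 16465961 to 31280267 in Vehicle and 29426183 to 69533214 in CORT, so depth differed between Vehicle and CORT. The sorted cells carried the RNA of stem cells, with a summed level of 6 ISC markers between 10672 and 13929 CPM (counts scaled to a common library size) in the 12 libraries. Of 8 glucocorticoid targets, 7 were called higher in both treatments, beside 1.3% (CRS) and 3.64% (CORT) of all genes tested. The 8 were listed with earlier results of these data known, so this count is not an independent check of the treatments. *Fkbp5*, a classic target, rose by a log2 fold change of 1.72 in CRS and of 2.42 in CORT, and was also higher in Vehicle than in Ctrl (1.42, edgeR adjusted p = 4.0e-04). Most other targets did not follow it there, with *Sgk1* (-1.25, adjusted p = 0.0206) and *Dusp1* (-3.60, adjusted p = 0.0196), both named after their values were seen, called lower and 5 of the 8 below 0 (median -0.19). *Zbtb16*, also named after its value was seen, lay further above 0 than *Fkbp5* (2.75). It missed the threshold (edgeR adjusted p = 0.192), and its Vehicle and Ctrl libraries overlapped. Of all genes tested in Vehicle against Ctrl, 0.447% were called higher and 0.352% lower. *Ptprc*, the defining marker of blood cells, was at 0 in every Ctrl, Vehicle and CORT library and at 1.10 CPM in CRS 4+5+6, and the sum of 6 blood markers did not exceed 6.60 CPM. RNA was measured in bulk, so fewer cells of a type and less RNA per cell cannot be told apart.

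Scaled for transcript length (FPKM), the 10 genes spanned a wide range of levels, as the plot of FPKM by gene shows. In Ctrl, *Nfkbia* (32.7 ± 7.22, SD, n = 3) and *Nfkb1* (30.7 ± 1.41) stood highest and their ranges overlapped. *Relb* (25.6 ± 1.23) came next and lay apart from its neighbours in that order, *Nfkb1* and *Rela*. Its range, 24.8 to 27 FPKM, overlapped that of *Nfkbia*, 25.7 to 40.1 FPKM. The levels of *Rela* (19.6 ± 3.33), *Nfkbiz* (17.1 ± 1.19) and *Nfkbib* (16.5 ± 2.62) overlapped from one to the next. *Nfkb2* lay lower at 8.65 ± 0.588 FPKM, and *Tnfaip3* (2.64 ± 1.03), *Nfkbie* (1.02 ± 0.232) and *Rel* (0.714 ± 0.0416) closed the order without overlap. Thus *Nfkb1*, *Relb* and *Rela* were the most abundant subunit RNAs in these cells and *Nfkbia* the most abundant inhibitor RNA. The order changed at the top between groups, with *Nfkbia* at 49.4 ± 12.0 FPKM and in front in CRS, *Relb* at 30.6 ± 3.54 FPKM and in front in Vehicle, where its range overlapped that of *Nfkb1*, and *Nfkbia* again in front in CORT at 41.4 ± 13.2 FPKM, overlapping *Nfkb1* there.

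**Figure D1:**
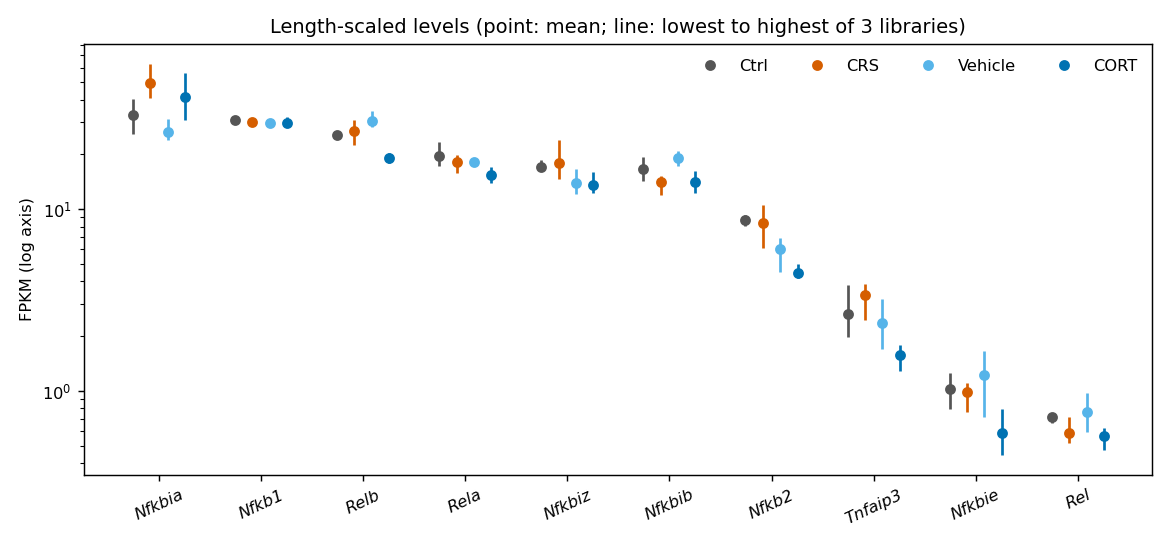
FPKM of the 10 genes (log axis) in the 4 groups. Each point is the mean of 3 libraries and each line runs from the lowest to the highest library. *Nfkbia*, *Nfkb1* and *Relb* lie at the top in every group, and *Tnfaip3*, *Nfkbie* and *Rel* at the bottom.

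Several of these genes carry the sequence that NF-kappaB binds, the kappaB consensus, close to their own start. RefSeq promoter windows (build GRCm38.p6, the assembly of mm10) were found for 7 of the 10 genes, in 10 windows of the 250 bases before a start. The consensus was searched by its 10 letters on both strands, and 5 of the 7 genes held a match in 7 of the 10 windows, while 7.25% of all 32851 promoter windows did. *Nfkb1*, *Relb* and *Nfkbiz* had no entry under their symbol. The matches nearest to the first listed start are given on the strand of the gene, 5′ to 3′, with the matches in capitals, to show where each lies in its promoter. Their likeness follows from the search. A run of 11 capitals is a pair of overlapping matches. The stretches lie at chr19:46304686-46304736 (*Nfkb2*, plus strand), chr11:23771039-23771073 (*Rel*, minus strand), chr12:55492655-55492688 (*Nfkbia*, minus strand), chr17:45555582-45555615 (*Nfkbie*, plus strand) and chr10:19015411-19015547 (*Tnfaip3*, minus strand).
Nfkb2: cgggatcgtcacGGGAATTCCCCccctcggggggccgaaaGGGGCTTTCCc
Rel: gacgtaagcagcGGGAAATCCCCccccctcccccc
Nfkbia: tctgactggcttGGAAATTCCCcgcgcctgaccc
Nfkbie: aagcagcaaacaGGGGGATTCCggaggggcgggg
Tnfaip3: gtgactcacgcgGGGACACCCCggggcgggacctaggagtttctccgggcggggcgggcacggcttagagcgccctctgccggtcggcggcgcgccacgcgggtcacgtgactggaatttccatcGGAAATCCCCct
The match of *Nfkbia* began 29 bases before the start, that of *Nfkbie* 106 bases before it, and *Tnfaip3* held matches that began 125 and 12 bases before it. These distances count from the RefSeq starts. For *Tnfaip3* that start differs from the one in the deposited data, where the gene spans chr10:19000910-19015657 and holds the printed stretch. The windows of *Rela* and *Nfkbib* held none. The short recognition sequence of the glucocorticoid receptor, AGAACA, was searched on both strands in the same windows. It was found for 1 of the 7 genes, at the other listed start of *Tnfaip3*, and in 16.1% of all promoter windows. A match describes the letters of the window and shows no binding.

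The comparison of CRS with Ctrl asked what a restraint of 3 h does to the genes of this system. By edgeR, 0 of the 10 were called higher and 0 lower at an adjusted p-value below 0.05, where 1.3% of all genes tested were higher and 0.59% lower. Past a 2-fold change as well, these were 0 of the 10, beside 0.612% higher and 0.138% lower of all genes. One gene, *Nfkbia*, had an unadjusted p below 0.05, a share of the 10 that sits beside 15.2% of all genes tested, and DESeq2 called that gene. The log2 fold changes ran from -0.28 to 0.61 with a median of -0.027, and the median of all genes was -0.0028. In none of the 10 did the CRS libraries lie apart from the Ctrl libraries, a separation found in 10.2% of all genes in each direction.

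In CORT against Vehicle, which asked what the hormone alone does, 0 of the 10 genes were called higher and 1 lower, *Relb*, beside 3.64% and 4.5% of all genes tested. Past a 2-fold change as well, 0 of the 10 were called, beside 1.13% higher and 0.737% lower of all genes. At an unadjusted p below 0.05 stood 4 of the 10, *Relb*, *Nfkbia*, *Nfkbib* and *Nfkbie*, beside 23.4% of all genes. The CORT libraries lay above all Vehicle libraries for *Nfkbia* and below all of them for *Rela*, *Relb* and *Nfkbib*, where 14.3% and 14.5% of all genes were so separated. Of the log2 fold changes 7 of 10 were below 0, against 47.9% of all genes, and their median was -0.35, against 0.014 over all genes. DESeq2 called *Nfkbia* higher as well.

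**Figure D2:**
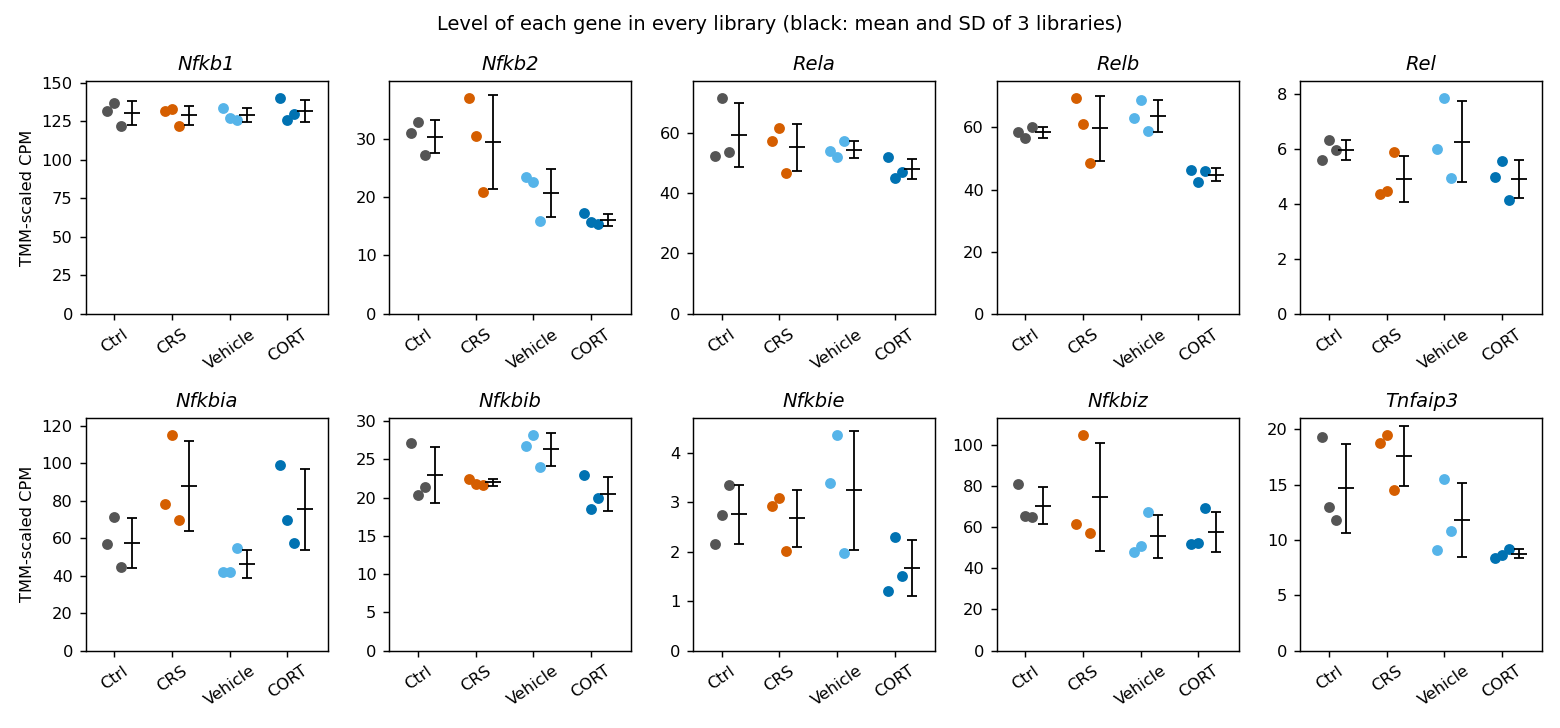
TMM-scaled CPM of each of the 10 genes in the 12 libraries, with the mean and SD of the 3 libraries of a group in black. The CORT libraries lie below all other libraries for *Relb*, while *Nfkb1* stays between 122 and 140.0 CPM throughout.

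*Relb* (ENSMUSG00000002983, chr7:19606217-19629438, minus strand, all coordinates as the files give them in mm10) encodes the subunit of the non-canonical pathway, which pairs with the product of *Nfkb2*. Its level was 63.0, 69.0 and 58.8 CPM in Vehicle libraries 3, 5 and 6, and 46.2, 42.3 and 45.9 CPM in CORT libraries 2, 4 and 5. Every CORT library lay below every Vehicle library, and also below all Ctrl and CRS libraries. The log2 fold change was -0.51 (SE 0.0864, 95% interval -0.70 to -0.31, edgeR adjusted p = 0.00817), a level of 0.703 times that in Vehicle. It passed the threshold in all 15 alternative settings, with adjusted p-values from 1.5e-04 to 0.0495, among them the counts thinned to the size of the smallest library (-0.47, adjusted p = 0.0183). In the unstressed and stressed mice *Relb* stood at 58.6, 56.5 and 60.1 CPM in Ctrl and 69.4, 61.0 and 48.7 CPM in CRS, with CRS libraries on both sides of the Ctrl libraries (log2 fold change 0.033, 95% interval -0.25 to 0.31, edgeR adjusted p = 0.935). The difference between the response to CRS and the response to CORT was 0.54 (SE 0.159, 95% interval 0.20 to 0.88), which did not pass the threshold (edgeR adjusted p = 0.162).

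*Nfkb2* (ENSMUSG00000025225, chr19:46304737-46312090, plus strand), which encodes the precursor that acts with *Relb*, had its highest levels in the mice that were not injected. The Ctrl libraries gave 30.9, 32.8 and 27.2 CPM and the CRS libraries 36.9, 30.5 and 20.8 CPM. The Vehicle libraries gave 23.4, 22.6 and 15.9 CPM and the CORT libraries 17.3, 15.8 and 15.3 CPM. All Vehicle libraries lay below all Ctrl libraries, while CRS overlapped Ctrl and CORT overlapped Vehicle. In Vehicle against Ctrl the log2 fold change was -0.56 (SE 0.169, 95% interval -0.93 to -0.19), which missed the threshold (edgeR adjusted p = 0.197). In CORT against Vehicle it was -0.35 (SE 0.167, 95% interval -0.73 to 0.023, edgeR adjusted p = 0.242), and in CRS against Ctrl -0.044 (95% interval -0.47 to 0.39). *Nfkb2* overlaps *Psd* and a long noncoding RNA on the opposite strand, the more abundant of which had a mean of 100.25 counts, and use of strand in the counting is not stated, so a part of its counts is uncertain.

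*Nfkb1* (ENSMUSG00000028163, chr3:135584655-135691547, minus strand) and *Rela* (ENSMUSG00000024927, chr19:5637483-5648130, plus strand) encode the partners of the most common NF-kappaB dimer. *Nfkb1* was the steadiest of the 10 genes, between 122 CPM in CRS 4+5+6 and 140.0 CPM in CORT 2, a ratio of 1.15. Its log2 fold change was -0.014 in CRS (95% interval -0.20 to 0.18) and 0.029 in CORT (-0.14 to 0.19), so that both intervals stayed within 0.20 of no change. *Rela* lay at 53.9, 52.0 and 57.3 CPM in Vehicle and at 51.8, 45.1 and 47.0 CPM in CORT, and the highest CORT library was just below the lowest Vehicle library. Its log2 fold change of -0.19 (SE 0.0858, 95% interval -0.38 to 0.0078) missed the threshold (edgeR adjusted p = 0.233). In Ctrl *Rela* ranged from 52.4 to 71.4 CPM and in CRS from 46.6 to 61.7 CPM, and the groups overlapped (-0.10, 95% interval -0.42 to 0.22).

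*Rel* (ENSMUSG00000020275, chr11:23736847-23770970, minus strand), the subunit best known from lymphocytes, was the scarcest of the subunit genes, at 4.16 to 7.85 CPM in the 12 libraries, or 70 to 335 counts. It overlapped in all comparisons. Its log2 fold changes were -0.28 in CRS (95% interval -0.87 to 0.31) and -0.35 in CORT (-0.88 to 0.18), intervals wide enough to hold changes of either direction.

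*Nfkbia* (ENSMUSG00000021025, chr12:55489411-55492647, minus strand) encodes IkappaB alpha, the inhibitor that is degraded and remade with each pulse of NF-kappaB. Its level was 56.8, 71.1 and 44.3 CPM in Ctrl libraries 1, 2 and 3, and 78.3, 115 and 69.7 CPM in CRS 1+2, 3 and 4+5+6. The highest Ctrl library was just above the lowest CRS library, so the groups overlapped, and CRS 3 stood above all other libraries. The log2 fold change was 0.61 (SE 0.202, 95% interval 0.16 to 1.06, 1.53-fold), which missed the threshold by edgeR (adjusted p = 0.179) and passed it by DESeq2 (adjusted p = 0.0339). Without CRS 3 it was 0.37, and over the 15 alternative settings the adjusted p ranged from 0.0339 to 0.435.

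After the hormone *Nfkbia* stood at 99.2, 69.6 and 57.2 CPM in CORT 2, 4 and 5, and at 41.9, 41.7 and 54.5 CPM in Vehicle 3, 5 and 6. The groups did not overlap, although CORT 5 was close to Vehicle 6. The log2 fold change was 0.71 (SE 0.190, 95% interval 0.28 to 1.13, 1.63-fold), and the call stood at the edge of the threshold (edgeR adjusted p = 0.0542). It passed in 4 of 15 alternative settings, which were DESeq2 (adjusted p = 7.2e-04), the unfiltered table (0.034), a minimum of 10 counts per library (0.0404) and the fit without CORT 5 (0.0286), while without CORT 2 the log2 fold change was 0.46 (adjusted p = 0.114). The difference between its responses to CRS and CORT was -0.10 (95% interval -0.79 to 0.59, edgeR adjusted p = 0.939), an interval that leaves room for a sizeable difference either way.

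*Nfkbib* (ENSMUSG00000030595, chr7:28758251-28767512, minus strand), which encodes IkappaB beta, lay at 26.8, 28.2 and 24.0 CPM in Vehicle and at 22.9, 18.5 and 20.0 CPM in CORT. All CORT libraries were below all Vehicle libraries, and the log2 fold change of -0.36 (SE 0.129, 95% interval -0.65 to -0.071) missed the threshold (edgeR adjusted p = 0.129). In Ctrl it was 27.2, 20.3 and 21.4 CPM and in CRS 22.5, 21.8 and 21.8 CPM, levels that overlapped (-0.059, 95% interval -0.39 to 0.28). *Nfkbib* overlaps *Sirt2* and *Ccer2* on the opposite strand, and the more abundant of these had a mean of 1213.33 counts over the 12 libraries. The mean of *Nfkbib* was 385 counts in Ctrl, 366 in CRS, 559 in Vehicle and 1071 in CORT. The counts of *Nfkbib* are therefore uncertain.

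*Nfkbie* (ENSMUSG00000023947, chr17:45555716-45563169, plus strand), the gene of IkappaB epsilon, was expressed at 1.21 to 4.36 CPM, or 35 to 136 counts, and had the largest spread within groups of the 10 genes (SD 0.440 on the log2 scale). Its level was 3.39, 4.36 and 1.97 CPM in Vehicle and 1.21, 2.30 and 1.51 CPM in CORT. The highest CORT library lay above the lowest Vehicle library. The log2 fold change of -0.94 (SE 0.396, 95% interval -1.83 to -0.049) was the furthest from 0 among the 10 genes in that comparison and missed the threshold (edgeR adjusted p = 0.19). In CRS it was -0.041 (95% interval -0.89 to 0.81).

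*Nfkbiz* (ENSMUSG00000035356, chr16:55811375-55838899, minus strand) encodes IkappaB zeta, a nuclear member of the family that acts on transcription. Its level was 80.9, 65.8 and 65.1 CPM in Ctrl and 61.7, 105 and 57.3 CPM in CRS. As for *Nfkbia*, CRS 3 was the highest of the 12 libraries, while the other CRS libraries lay below all Ctrl libraries, and without CRS 3 the log2 fold change turned from 0.084 to -0.24. In Vehicle it was 48.2, 50.9 and 67.7 CPM and in CORT 51.9, 52.4 and 69.2 CPM, with a log2 fold change of 0.047 (95% interval -0.30 to 0.39). In Vehicle against Ctrl the difference was -0.34 (SE 0.136, 95% interval -0.63 to -0.038, edgeR adjusted p = 0.37).

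*Tnfaip3* (ENSMUSG00000019850, chr10:19000910-19015657, minus strand) encodes a ubiquitin-editing enzyme that shuts the pathway down upstream of the IkappaB kinases. The Ctrl libraries gave 19.3, 13.0 and 11.8 CPM and the CRS libraries 18.8, 19.5 and 14.5 CPM, and the groups overlapped (log2 fold change 0.26, 95% interval -0.23 to 0.74, edgeR adjusted p = 0.649). The Vehicle libraries gave 9.09, 15.5 and 10.9 CPM and the CORT libraries 8.41, 8.66 and 9.18 CPM, where a single Vehicle library reached into the CORT range (-0.43, SE 0.208, 95% interval -0.90 to 0.035, edgeR adjusted p = 0.249). The signs in the treatments were opposite, and the difference between them was 0.69 (SE 0.313, 95% interval 0.015 to 1.36, edgeR adjusted p = 0.393).

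**Figure D3:**
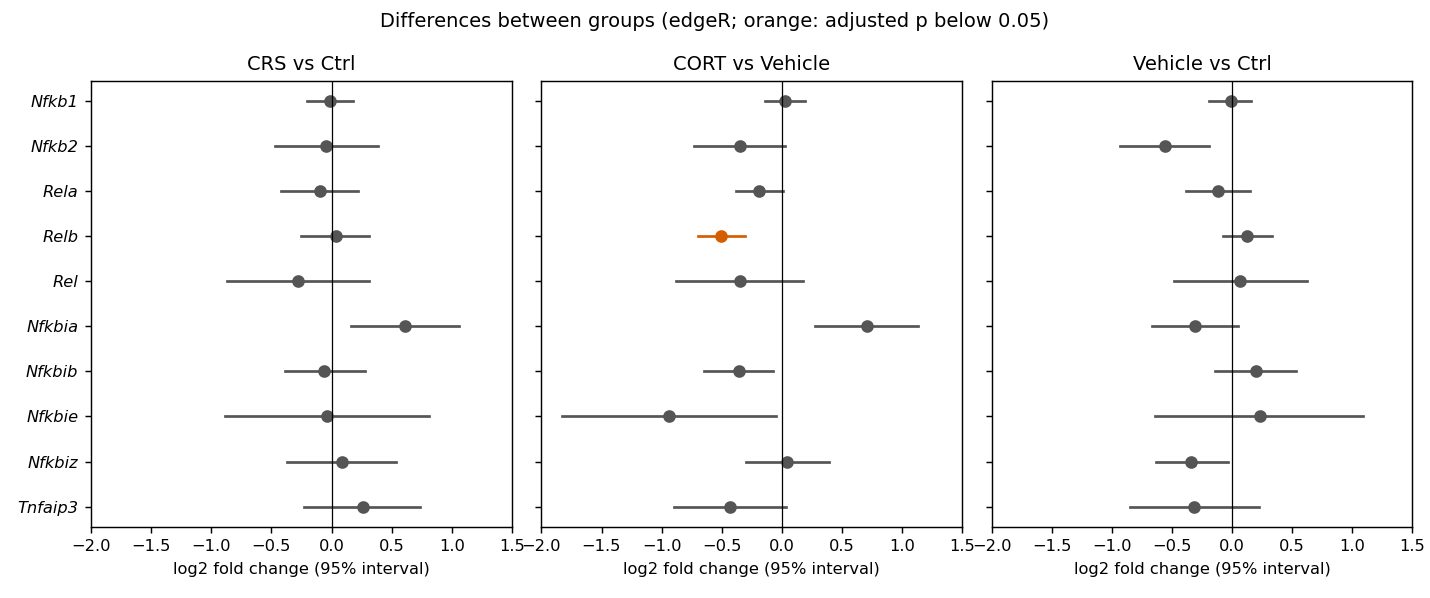
Log2 fold changes of the 10 genes with 95% intervals in CRS against Ctrl, CORT against Vehicle and Vehicle against Ctrl, from edgeR fits of 6 libraries each. *Relb* in CORT (-0.51) is the only value past the threshold, and the intervals of *Nfkbia* lie above 0 in CRS and CORT.

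For the difference between both responses (CRS minus Ctrl, less CORT minus Vehicle) edgeR called 0 of the 10 genes, beside 0.388% of all genes tested, and DESeq2 called 0. At an unadjusted p below 0.05 stood 2 of the 10, *Relb* and *Tnfaip3*, beside 12.5% of all genes. In Vehicle against Ctrl, which differ by the injection and by the withdrawal of food and water, edgeR called 0 of the 10, beside 0.447% higher and 0.352% lower of all genes, and DESeq2 called 0. There 2 of the 10 had an unadjusted p below 0.05, *Nfkb2* and *Nfkbiz*, beside 11.1% of all genes, and *Nfkb2* alone was separated, lower as were 8.14% of all genes. Vehicle against Ctrl shares its libraries with the other comparisons, so its values are not independent of them.

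Within groups, the 10 genes varied unequally between libraries. The SD of log2 CPM within groups was lowest for *Nfkb1* (0.0724) and highest for *Nfkbie* (0.440) and *Nfkbia* (0.342). Across groups, so with any treatment difference included, *Nfkbie* differed 3.61-fold between CORT 2 and Vehicle 5. For *Nfkbia* the ratio was 2.75 between Vehicle 5 and CRS 3. Among the 45 pairs, the deviations from the group means correlated most for *Nfkb2* and *Relb* (Pearson's r = 0.82, Spearman's rho = 0.62), *Rela* and *Nfkbia* (0.77 and 0.67) and *Nfkb1* and *Rela* (0.74 and 0.74), over 12 libraries that share depth and RNA quality between genes. At the other end stood *Rel* and *Nfkbiz* (-0.61 and -0.51). The genes whose log2 CPM over the 12 libraries was most like that of *Nfkbia*, of 9553 compared, were *Pnpla2* (Pearson's r = 0.93), *Apobec3* (0.92) and *Map1lc3b* (0.92).

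Markers of other cell types moved with the treatments, and their part in the values above was not tested. Of 6 enterocyte markers, 5 were called higher in CRS, beside 1.3% of all genes tested. The villus enzyme gene *Alpi* was among the 5 (log2 fold change 3.60). The summed level of the 6 was 442 to 485 CPM in Ctrl and 1136, 695 and 2004 CPM in CRS 1+2, 3 and 4+5+6. CRS 3, the library with the highest *Nfkbia*, *Nfkbiz* and *Tnfaip3*, had the lowest enterocyte sum of its group. Of 6 Paneth cell markers, 4 were called lower in CORT, beside 4.5% of all genes. Their summed levels were 186 to 211 CPM in Vehicle and 104 to 116 CPM in CORT. In CRS 1 Paneth cell marker was called higher, beside 1.3% of all genes. There 6 of 6 were above 0, with sums of 169 to 263 CPM against 136 to 173 CPM in Ctrl. Of the 6 ISC markers, 1 was called lower in CRS and 3 in CORT, beside 0.59% and 4.5% of all genes. The sum of all 6 was 10875 to 12116 CPM in CORT against 10672 to 11139 CPM in Vehicle. Their median was lower and did not overlap there, at 434 to 517 CPM against 525 to 584 CPM. In CRS the sum was 11307 to 13929 CPM against 10683 to 12078 CPM in Ctrl. The median in CRS was 494 to 525 CPM against 551 to 607 CPM in Ctrl. The sum of 6 stromal and endothelial markers did not exceed 3.23 CPM in any library.

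Beyond the 10 genes, 104 others of the pathway were listed by role. In CRS, edgeR called 0 of the 79 that could be tested, 11 had an unadjusted p below 0.05, beside 15.2% of all genes, and the median log2 fold change was -0.00034, so the counts gave no excess over all genes. DESeq2 called *Tax1bp1* (0.33) and *Bcl2l1* (0.45) higher and *Tlr4* lower, of which *Tlr4* did not pass edgeR's filter on low counts. In CORT, 3 of 82 were called higher and 10 lower, beside 3.64% and 4.5% of all genes, and the median was -0.16. An unadjusted p below 0.05 was found for 30 of the 82, beside 23.4% of all genes. With a library left out the lower calls fell to between 4 and 8 (DESeq2 called 15), with 4 without CORT 4, 4 without CORT 5 and 6 without Vehicle 6, and the higher calls were 1 without CORT 4.

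The receptors that feed the pathway made up most of the lower calls. Of 19 listed, 13 were tested in CORT, 6 were called lower and 0 higher, beside 4.5% and 3.64% of all genes, 9 had an unadjusted p below 0.05, beside 23.4% of all genes, and 12 of 13 log2 fold changes were below 0 with a median of -0.52. *Tnfrsf1a*, the main receptor for TNF, went from 83.0, 81.9 and 87.9 CPM in Vehicle to 58.7, 56.7 and 61.2 CPM in CORT (-0.52, SE 0.0726, edgeR adjusted p = 0.00307). *Ltbr*, the lymphotoxin beta receptor that signals through the non-canonical pathway, went from 116, 127 and 138 CPM to 82.3, 87.0 and 96.9 CPM (-0.53, SE 0.0924, adjusted p = 0.0093). In both genes every CORT library lay below every Vehicle library. The subunit gene of the interleukin 17 receptor, *Il17rc*, stood at 73.2, 60.9 and 67.2 CPM in Vehicle and 45.4, 44.8 and 47.6 CPM in CORT (-0.55, SE 0.0861, adjusted p = 0.0055). The lower calls also held *Tnfrsf11a*, the receptor for RANK ligand (-0.48, adjusted p = 0.0302), *Tnfrsf12a*, the receptor for TWEAK (-1.04, adjusted p = 0.035), and *Nod1*, a sensor of bacterial cell wall fragments (-0.47, adjusted p = 0.043). The same receptors leaned the other way in Vehicle against Ctrl, which shares the Vehicle libraries, with 12 of 13 above 0 and a median of 0.17, and 0 were called by edgeR or DESeq2 (1 at an unadjusted p below 0.05, beside 11.1% of all genes). In CRS 0 of the 13 receptors were called by edgeR, beside 1.3% higher and 0.59% lower of all genes, with a median of 0.066. There 1 had an unadjusted p below 0.05, beside 15.2% of all genes.

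**Figure D4:**
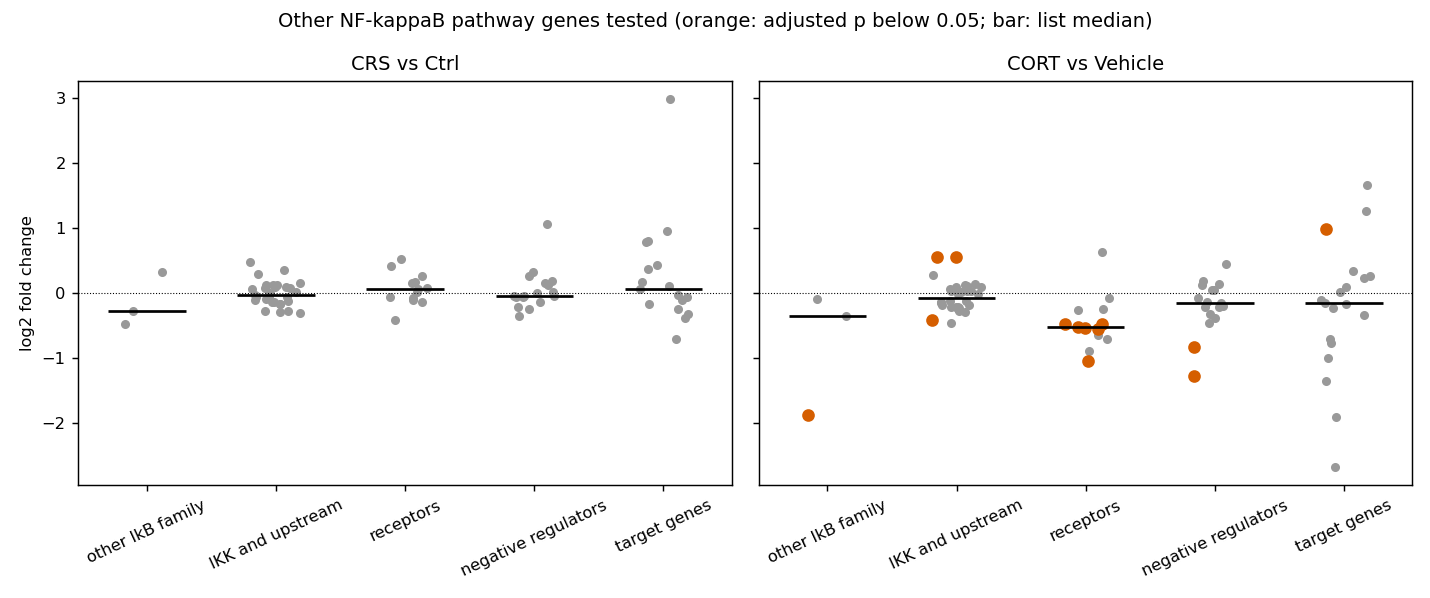
Log2 fold changes of the other pathway genes tested, by role, in CRS against Ctrl and in CORT against Vehicle, with the median of each list as a bar and the genes past the adjusted p threshold in orange. No gene is past it in CRS, and in CORT 6 of 13 receptors are, all of them lower, with a list median of -0.52.

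The other members of the IkappaB family were *Nfkbid*, *Bcl3* and *Nfkbil1*. *Bcl3*, whose product binds the *Nfkb1* and *Nfkb2* proteins in the nucleus, stood at 39.3, 48.3 and 89.1 CPM in Vehicle and at 15, 13.9 and 19.9 CPM in CORT. The groups did not overlap, and its log2 fold change of -1.87 (SE 0.282, edgeR adjusted p = 0.0047) was the furthest from 0 among the pathway genes called in CORT. In CRS it was -0.28 (SE 0.146, adjusted p = 0.408), and the difference between the responses was 1.58 (SE 0.353, adjusted p = 0.0751). *Nfkbid* was low, at 5.19 to 11.8 CPM, with log2 fold changes of -0.48 in CRS (adjusted p = 0.515) and -0.35 in CORT (adjusted p = 0.297).

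None of the genes of the IkappaB kinase complex passed the test. *Chuk*, *Ikbkb* and *Ikbkg* had log2 fold changes of -0.16, -0.032 and 0.12 in CRS and of 0.10, 0.14 and 0.089 in CORT, with edgeR adjusted p-values of 0.286 or more. The 95% intervals in CORT were -0.083 to 0.29, -0.023 to 0.30 and -0.11 to 0.29. Of the 30 genes of the kinases and of the steps before them, 2 were called higher in CORT and 1 lower, beside 3.64% and 4.5% of all genes. Those higher were *Birc2* (35.3 ± 2.91 CPM in Vehicle and 51.8 ± 3.77 in CORT, n = 3 each, 0.55, adjusted p = 0.00934) and *Birc3* (25.2 ± 3.17 and 36.9 ± 2.57, 0.55, adjusted p = 0.0238), ubiquitin ligases at TNF receptors that also restrain the non-canonical pathway. The lower one was *Irak4*, a kinase of Toll-like receptor signalling (-0.42, adjusted p = 0.0248).

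Of 18 genes that restrain the pathway, 17 were tested, and 2 were called lower in CORT, beside 4.5% of all genes, namely *Zc3h12a*, an RNase that degrades inflammatory messenger RNAs (-0.83, edgeR adjusted p = 0.0148), and *Pdlim2*, a nuclear ubiquitin ligase for the *Rela* protein (-1.27, adjusted p = 0.0382). In Vehicle against Ctrl 1 was called higher, beside 0.447% of all genes, namely *Usp18*, named here after its value was seen (3.29, adjusted p = 0.0471). Its Vehicle libraries gave 15.7, 1.92 and 8.06 CPM and its Ctrl libraries 0.818, 1.26 and 0.548 CPM, and among the 15 alternatives the call held only with DESeq2, with its size factors in edgeR and without Vehicle 5.

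Among 34 target genes of NF-kappaB, 19 reached a testable level in CORT and 17 in CRS. The 15 that were not tested in CORT held most of the inflammatory cytokines and chemokines of the list. In CRS 0 of the 17 were called, beside 1.3% higher and 0.59% lower of all genes tested. In CORT 1 of the 19 was called higher and 0 lower, beside 3.64% and 4.5% of all genes. At an unadjusted p below 0.05 stood 7 of the 19, beside 23.4% of all genes. Of the log2 fold changes in CORT, 11 of 19 were below 0, with a median of -0.15. The target called was *Bcl2l1*, the gene of a protein that protects from apoptosis. Its level was 35.3, 47.9 and 40.4 CPM in Vehicle and 88.9, 80.8 and 75.9 CPM in CORT (0.99, SE 0.115, edgeR adjusted p = 0.00131). The groups did not overlap. In CRS it stood at 44.1, 50.3 and 49.6 CPM against 38.4, 33.6 and 33.9 CPM in Ctrl, also without overlap, and missed the threshold (0.44, SE 0.109, adjusted p = 0.0779). The gene of the glucocorticoid receptor, *Nr3c1*, was lower in CORT (-0.37, SE 0.0687, adjusted p = 0.012) and was at -0.048 in CRS (adjusted p = 0.865).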

How the data were processed

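The authors aligned paired reads to mm10 and deposited 1 table of estimated counts per gene, the FPKM of each gene and its mean coverage (signal) in each library. Their processing notes name HISAT2 2.2.1 and StringTie 2.2.1, whereas the methods name featureCounts. The deposited estimated counts equal covered bases divided by a fixed length, so a read pair of 150-base reads can make up to 4 counts, and intervals that took them as molecules would be too narrow. They are whole numbers and were used as such. Coverage served only to find this unit. The number of columns without a sample was 0.

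The members and lists were chosen with earlier results of these data known. Each comparison was tested on its 6 libraries with edgeR 4.0.16 in R 4.3.3 (TMM, filterByExpr, quasi-likelihood F-test, two-sided, Benjamini-Hochberg adjustment over all genes tested, threshold 0.05), and the difference of responses on 12 libraries. The common biological coefficient of variation was 18.5% (CRS), 19.2% (CORT) and 16.8% (Vehicle against Ctrl). The SE is the log2 fold change over the root of F. CPM used TMM factors over 12 libraries. Alternatives were DESeq2 1.42.0, its size factors, other filters, 1 fit over 12 libraries, limma 3.58.1 on log2(FPKM + 1) or log2(FPKM + 0.1) of the deposited FPKM, each library left out and, added after the data had been seen, thinning to the smallest library. The script was checked on simulated counts. Of the genes, 47224 matched the annotation. Libraries of a group differed by 9.75 to 104.17 in chi-square per gene, so none was counted as a repeat.

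Named were the 10 genes, other pathway genes called in CRS or CORT (up to 6 per list), *Nfkbid*, *Bcl3*, *Chuk*, *Ikbkb*, *Ikbkg*, *Fkbp5*, *Nr3c1*, *Ptprc* and *Alpi*, and the 3 genes most like *Nfkbia*. *Tsc22d3* was tested by the same rule and rose by 1.54 in CRS and 2.27 in CORT. Genes named as called in an alternative only were chosen after their values were seen. Goblet, enteroendocrine and tuft markers had 2, 0 and 0 genes called higher in CRS and 0, 0 and 0 in CORT, and 0, 0 and 1 called lower in CORT. The shares of all genes tested were 1.3% higher in CRS, 3.64% higher in CORT and 4.5% lower in CORT.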

Additional observations from a re-analysis of the deposited data

Results flagged for a closer look

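*Il17rc*, which encodes a subunit of the interleukin 17 receptor, responded differently to the treatments by a test of the difference itself. Its log2 fold change was 0.17 in CRS against Ctrl (SE 0.0942, edgeR adjusted p = 0.46) and -0.55 in CORT against Vehicle (SE 0.0861, edgeR adjusted p = 0.0055), a difference of 0.71 (SE 0.122, edgeR adjusted p = 0.0294). The libraries gave 53.2, 53.4 and 54.3 CPM in Ctrl, 57.4, 57.2 and 65.8 CPM in CRS, 73.2, 60.9 and 67.2 CPM in Vehicle and 45.4, 44.8 and 47.6 CPM in CORT. The Vehicle libraries already lay above the Ctrl libraries (0.33, adjusted p = 0.175). It was 1 of 81 other pathway genes tested for this difference, beside 0.388% of all genes, and none of the 10 NF-kappaB and inhibitor genes passed the same test.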

How the results depend on the processing

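Of 640 repeats of a single gene's value under an alternative, 595 kept their direction and side of the threshold, 40 reversed and 5 came past the threshold. *Relb* stayed the 1 gene called lower in CORT under all 15 alternatives, and no alternative called any of the 10 genes for the difference of responses. For other pathway genes, *Il17rc* included, the alternatives for that difference were not summarised, so how far its call depends on them is not given here. Among the 10 genes, *Nfkbia* made the count of higher calls 1 in place of 0 with DESeq2 in CRS, and in CORT with DESeq2, no filter, at least 10 counts in every library, and between 0 and 1 when a library was left out. Among other pathway genes, higher calls in CRS were 2 with DESeq2, 1 with at least 10 counts and 1 with 1 fit over 12 libraries, and 0 to 1 with a library left out, and lower calls were 1 with DESeq2 and 0 to 2 with a library left out. In CORT the 10 lower calls became 15 with DESeq2, 12 with thinning, 11 with no filter and with at least 10 counts, 9 with limma on filtered FPKM, 4 with limma on log2(FPKM + 1) without a filter and 4 to 8 with a library left out. The 3 higher calls became 4 with DESeq2 and 1 to 4 with a library left out. In Vehicle against Ctrl the 1 higher call (*Usp18*) became 0 with no filter, at least 10 counts, 1 fit over 12 libraries, all 3 limma settings and thinning, and 0 to 1 with a library left out, and 1 lower call (*Ier2*) was made by DESeq2 only.
Each reversed value stayed on the non-significant side of the threshold. With a library left out, log2 fold changes in CRS ran from -0.056 to 0.027 (*Nfkb1*), -0.24 to 0.16 (*Nfkb2*), -0.19 to 0.061 (*Rela*), -0.088 to 0.16 (*Relb*), -0.14 to 0.081 (*Nfkbib*), -0.19 to 0.13 (*Nfkbie*) and -0.24 to 0.24 (*Nfkbiz*). In CORT they ran from -0.014 to 0.065 (*Nfkb1*) and -0.10 to 0.22 (*Nfkbiz*), and limma on FPKM gave -0.015 in all 3 settings for *Nfkb1*, and -0.042, -0.045 and -0.042 for *Nfkbiz*. In Vehicle against Ctrl they ran from -0.058 to 0.025 (*Nfkb1*), -0.19 to 0.042 (*Rela*), -0.13 to 0.22 (*Rel*) and -0.047 to 0.50 (*Nfkbie*), and for the difference of responses from -0.007 to 0.24 (*Rela*), -0.13 to 0.21 (*Rel*), -0.34 to 0.15 (*Nfkbia*) and -0.30 to 0.19 (*Nfkbiz*). Beyond what a smaller number of libraries or genes explains by construction, the cause was not tested.

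No paired analysis was possible because the groups compared share fewer than 2 replicate numbers. *Nfkbie* and *Rel* had the lowest counts of the 10 genes; depth and spread between libraries were not separated there.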
